A study of Canis lupus familiaris with 3 samples.

Results

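The genes described here encode the cytosolic ribosomal proteins and the initiation, elongation and termination factors of translation. They were taken by symbol: all spots annotated with 1 gene symbol that begins with RPL, RPS, EIF1 to EIF6, EEF1, EEF2 or GSPT, or that is ETF1, without the S6 kinase genes. Of 67 such symbols, 60 had at least 1 spot with a value on all 3 arrays, out of 5508 named genes measured in this way. The 60 genes comprise 30 ribosomal proteins (19 of the large and 11 of the small subunit), 26 initiation factors, 2 elongation factors (EEF1D and EEF2), the termination factor GSPT1 and the eIF2 kinase EIF2AK2. MDCK cells, an epithelial line of dog kidney, carrying the transcription factor E47 were compared with MDCK-CMV control cells, both grown in the same serum-containing medium, on 2-colour arrays of human cDNA clones. Amplified RNA of E47 cells was hybridised in Cy5 for extraction 1 and in Cy3 and in Cy5, as a dye swap, for extraction 2, each time against RNA of the control cells in the other dye. The samples are named MDCK-E47_1 and MDCK-E47_2, and the design calls the duplicates different RNA extractions, without saying whether they came from separate cultures. The labels call the E47 cells transfectants and name neither the vector nor whether they are 1 clone or a pool.

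The ribosome is built from a small subunit, which decodes the messenger RNA, and a large subunit, which joins the amino acids. Initiation factors bring the small subunit to the start codon, elongation factors drive each round of peptide synthesis, and termination factors release the finished chain. The messenger RNAs of ribosomal proteins and of most elongation factors share a pyrimidine tract at their 5′ end, through which their translation follows mTOR signalling. Ribosomal protein messages are among the most abundant of growing cells and are often taken as a group with little change.

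All values are log2 ratios of E47 over control cells. This direction is likely and not stated: each sample lists the E47 cells as the first channel, and CDH1, the E-cadherin gene that the series title says E47 represses, was at −3.52, −3.83 and −3.47 on the 3 arrays (extraction 1 in Cy5, extraction 2 in Cy3, extraction 2 in Cy5, an order kept below). No source names the base of the logarithm, which was read as 2. With natural logarithms fold values would be larger: 3.96-fold instead of 2.60-fold lower for EEF1D. TCF3, the gene that encodes E47, was at −0.27, −0.28 and −0.35. Whether its clones detect the introduced sequence is unknown. Of the epithelial markers with values, 6 of 6 fell, and of the mesenchymal markers 3 of 4 rose. Array medians lay between −0.0051 and 0.0027, so the values are relative to the bulk of the spots. RNA of whole cultures was measured, in which fewer cells of a type and less RNA per cell cannot be told apart. Ratios give no expression level, so whether a marker is absent from these cells cannot be read from them. Values were present for 24771 to 25537 of 27648 spots per array. Precision is limited by the number of arrays, and the brightness of a spot was not analysed here.

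Of the 60 genes, 13 passed the test at an adjusted p under 0.05, 8 lower and 5 higher in E47 cells (limma, ratio against 0, Benjamini-Hochberg adjustment over all 14008 features, n = 2 extractions). That is 21.7% of the genes, beside 9.19% of all named genes, 3.85% lower and 5.34% higher. Ribosomal proteins gave 9 of these calls, 6 lower (20.0% of the 30) and 3 higher (10.0%). Initiation factors gave 1, in EIF3E, which is 3.85% of the 26, and both elongation factors and GSPT1 passed. The median log2 ratio was −0.15 for ribosomal proteins and 0.05 for initiation factors, against −0.02 for all named genes. Ribosomal proteins were spread widely around their median, with an SD over genes of 0.58 against 0.47 for all named genes and 0.46 for initiation factors. On all 3 arrays 14 of the 30 ribosomal proteins were below 0 and 10 above, or 46.7% and 33.3%, while 32.8% of all named genes lay below and 30.6% above.

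The calls depended on the array used for extraction 2. Without its Cy5 array EEF1D and EEF2 kept their calls and the other 11 lost theirs, with 1.98% of all named genes called. Without its Cy3 array the 13 calls held and 6 were added, with 16.7% of named genes called. With the 3 arrays scaled to the same spread, EEF1D, RPL8 and RPS9 kept their calls, with 1.23% of named genes called. The direction of the 13 genes was the same on every array, which is likely for genes chosen by a test on these arrays. The test rests on 1 residual degree of freedom and on the spread between 2 extractions, with the control RNA treated as a common reference. Whether the control RNA on the 3 arrays was 1 extract is not stated: if it was, its spread is left out of the SE. Extraction 1 has no dye swap, so its own difference and the effect of its dye cannot be told apart.

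Among proteins of the large subunit, 4 genes fell. RPL8, a protein next to the catalytic centre of the large subunit, had log2 ratios of −1.70, −0.88 and −1.10, and fell 2.54-fold, to a mean of −1.35 ± 0.20 (moderated SE from n = 2 extractions; adjusted p = 0.0478). Extraction 1 was the lowest array for RPL8, and its SD between extractions was 0.50. This gene lost its call in 4 of 10 alternative fits, with adjusted p-values up to 0.0978. RPL28 was at −1.25, −0.73 and −0.85, with a mean of −1.02 ± 0.15 and an adjusted p of 0.0434. RPL10, which sits near the peptidyl-transferase centre and completes the maturing large subunit, was at −0.96, −0.79 and −0.74, a mean of −0.86 ± 0.10 (adjusted p = 0.0308). The clone of its paralog RPL10L was at −0.65, −0.74 and −0.45, a mean of −0.62 ± 0.08 (adjusted p = 0.0403). Human clones of such close relatives can bind the same dog transcript, so the values of RPL10 and RPL10L may not be separate measurements of 2 genes, which was not tested.

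In the small subunit 2 genes fell. RPS9, a protein involved in the fidelity of decoding, was at −1.27, −0.71 and −1.04, a mean of −1.07 ± 0.13 (adjusted p = 0.0349), or 2.10-fold lower. RPS19, a protein needed for maturation of the small subunit and known from Diamond-Blackfan anaemia, was at −0.96, −0.59 and −0.69, a mean of −0.80 ± 0.12 (adjusted p = 0.0461). RPS19 was below 0 in each of 3 places on the array, with means from −1.01 to −0.58, and lost its call in 5 of 10 alternative fits, with adjusted p-values up to 0.105.

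The 3 ribosomal proteins that rose were of both subunits. RPL30, of the large subunit, was at 0.77, 0.65 and 0.90, a mean of 0.77 ± 0.08 (adjusted p = 0.0292), or 1.71-fold higher. RPL35A, another large-subunit protein, was at 0.62, 0.63 and 0.93, a mean of 0.70 ± 0.09 (adjusted p = 0.0393). RPS13, of the small subunit, was at 0.86, 0.83 and 0.64, a mean of 0.80 ± 0.09 (adjusted p = 0.0307), or 1.74-fold higher. RPS9 lost its call in 1 of 10 alternative fits, and RPL10, RPL10L, RPL28, RPL30, RPL35A and RPS13 lost theirs in 2, with adjusted p-values up to 0.0981.

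**Figure D1:**
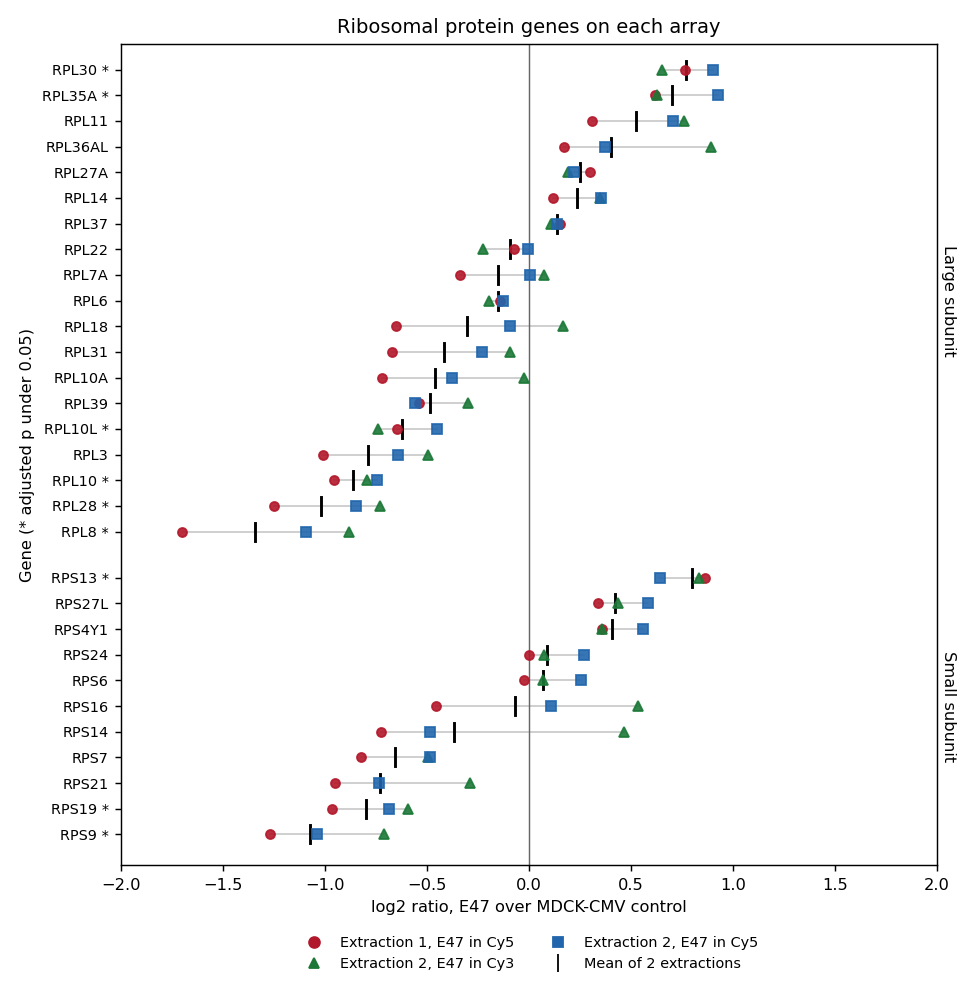
Log2 ratio of E47 over MDCK-CMV cells (x axis) for each of 30 ribosomal protein genes (y axis), by subunit and in order of the mean. Symbols are the 3 arrays, the black bar is the mean of 2 extractions, and an asterisk marks an adjusted p under 0.05; RPL8 is lowest at −1.35 and RPS13 highest at 0.80, and for most genes with a mean below 0 the extraction 1 array lies to the left of the other two.

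The remaining 21 ribosomal proteins did not pass. Nearest to the threshold among those under 0 on every array were RPL3, at −1.01, −0.50 and −0.64 (adjusted p = 0.0623), RPS21, at −0.95, −0.29 and −0.74 (0.0693), RPS7, at −0.83, −0.50 and −0.48 (0.0640), and RPL39, at −0.54, −0.30 and −0.56 (0.0633). RPL3 shapes the peptidyl-transferase centre of the large subunit. RPL10A, at −0.72, −0.03 and −0.38 (0.151), and RPL31, at −0.67, −0.09 and −0.23 (0.168), were also below 0 on each array. On the other side, RPL11, which outside the ribosome binds the p53 regulator MDM2, was at 0.31, 0.76 and 0.71 (adjusted p = 0.107). RPL36AL was at 0.17, 0.89 and 0.37, a mean of 0.40 (limma adjusted p = 0.161). RPL36AL, RPL27A, with a mean of 0.25, and RPL14, with 0.23, lay above 0 on every array. RPS27L, a paralog of RPS27 known as a p53 target, was at 0.34, 0.44 and 0.58 (adjusted p = 0.0847), and RPS4Y1 was at 0.36, 0.36 and 0.56 in 1 spot (0.0804). The dog gene table used for names holds 56 of the 60 symbols; RPS4Y1, RPL39, EIF1AXP1 and EIF3CL are not in it, and their clones may bind related transcripts. RPS6, the ribosomal protein phosphorylated by the S6 kinases, was at −0.03, 0.07 and 0.25, a mean of 0.07 ± 0.10 with an adjusted p of 0.641. RPS24 was at −3.97e-05, 0.08 and 0.27, a mean of 0.09 (limma adjusted p = 0.548). The means of RPL6, RPL22 and RPL37 were −0.15, −0.10 and 0.14.

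For 6 ribosomal proteins the arrays lay on both sides of 0, RPS6 and RPS24 among them. RPS14 was at −0.72, 0.47 and −0.49, RPS16 at −0.46, 0.53 and 0.11, RPL18 at −0.65, 0.17 and −0.09, and RPL7A at −0.34, 0.07 and 0.0038. RPS14, a protein of the small subunit platform, had the largest difference between the dyes of extraction 2 among the 60 genes, 0.95 higher in Cy3 than in Cy5. RPS15, which had no value for extraction 1 and is not among the 60, was at 0.33 in Cy3 and −1.22 in Cy5. Both arrays of extraction 2 carried the same E47 extraction, labelled in different dyes.

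Of the initiation factors 25 of 26 did not pass, 10 of the 26 having an unadjusted p under 0.05, which 35.6% of all named genes had. EIF3E, a subunit of the eIF3 complex that holds the small subunit ready for messenger RNA, rose: the arrays gave 0.93, 1.59 and 1.27, a mean of 1.18 ± 0.15 (moderated SE, n = 2 extractions), or 2.27-fold higher, with an adjusted p of 0.0382. It was measured by 1 clone in 2 adjacent spots. It lost its call without the Cy5 array of extraction 2 and with scaled arrays, with adjusted p-values up to 0.0882. The other 8 eIF3 genes lay between −0.29 and 0.46. EIF3H was the next highest, at 0.51, 0.56 and 0.27 (adjusted p = 0.0667), while EIF3D, with a mean of −0.28, and EIF3J, with −0.29, were the lowest, both below 0 on every array. EIF3A and EIF3B, which form the core of the complex, had means of 0.03 and 0.08, and EIF3CL, EIF3G and EIF3K of −0.10, 0.01 and 0.07.

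None of the 5 genes of eIF2, which carries the initiator tRNA, and of its exchange factor eIF2B passed (limma), beside 9.19% of all named genes. Of the 5, 1 had an unadjusted p under 0.05, which 35.6% of all named genes had. With 5 genes, such counts cannot be told apart from these shares. EIF2S1, the α subunit of eIF2 whose phosphorylation slows initiation, was at 0.42, 0.37 and 0.14 (adjusted p = 0.114), EIF2S3 had a mean of 0.17 and EIF2S2 of 0.03. EIF2B4 and EIF2B5, both of eIF2B, had means of −0.17 and −0.00343, and the clones of EIF2B4 differed in sign, at 0.08 and −0.41. EIF2AK2, the double-stranded RNA-activated kinase of eIF2 (PKR), was at −0.08, 0.03 and 0.05, with an adjusted p of 0.907. EIF2A, a separate factor and not a subunit of eIF2, had a mean of −0.03.

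Among the factors of cap recognition and scanning, the lowest and the highest had means past 1 on the log2 scale and did not pass. EIF4B, which stimulates the helicase eIF4A, was at −1.38, −0.31 and −1.06, a mean of −1.03 ± 0.20 with an adjusted p of 0.0696, and it passed when the Cy3 array was left out. EIF4G2, a relative of the scaffold eIF4G without the site that binds the cap-binding eIF4E, was at 1.49, 0.60 and 0.70, a mean of 1.07 ± 0.23 with an adjusted p of 0.0825. Their SDs between extractions were 0.49 and 0.60. EIF4E2, a cap-binding relative of eIF4E that represses translation, was at 0.53, 0.45 and 0.53 in 1 spot (adjusted p = 0.0554). EIF4A2, a helicase, was at 0.49, 0.21 and −0.03. EIF1B was at −0.30, −0.27 and −0.81 (adjusted p = 0.0982). The initiation factors were grouped by symbol, not by function, and the genes that follow are not all factors of cap recognition and scanning. EIF1AD was at −0.37, −0.50 and −0.76 (adjusted p = 0.0806), and EIF6, which keeps the subunits apart until the large one is mature, at −0.60, −0.16 and −0.19 (0.160). EIF5A2, a paralog of the hypusine-bearing EIF5A, was at 0.66, 0.29 and 0.45 (adjusted p = 0.0823), and EIF5, EIF1AX and the pseudogene symbol EIF1AXP1 had means of 0.17, 0.14 and 0.25. At an adjusted p under 0.10, which 22.6% of all named genes met, 8 initiation factors passed, 3 lower and 5 higher, and 15 ribosomal proteins did, 10 lower and 5 higher.

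Both elongation factors fell, with a median log2 ratio of −1.32. EEF1D, a subunit of the exchange factor that reloads the tRNA-delivering EEF1A with GTP, was at −1.56, −1.24 and −1.15, a mean of −1.38 ± 0.13 (moderated SE, n = 2 extractions), or 2.60-fold lower (adjusted p = 0.0246). EEF2, the GTPase that moves the ribosome along by a codon, was at −1.23, −1.48 and −1.13, a mean of −1.26 ± 0.09, or 2.40-fold lower (adjusted p = 0.0197). Averaged over spots, both genes were at or below −1.13 on every array, in either dye. EEF1D kept its call in all 10 alternative fits and EEF2 in 9, missing with scaled arrays at 0.0572. The EEF2 clone lay in 2 places on the array, with means of −0.77 and −1.76, so its size is less certain than its SE shows. The place with the mean of −0.77 was at −0.66, −1.28 and −0.48 on the arrays. EEF1D rests on 2 spots, and 2 more of the same clone lacked a value on the Cy5 array of extraction 2. With those included its mean was −1.39. With 2 genes this group says nothing of the other elongation factors, EEF1A1 and EEF1A2 among them, which had no single-symbol spot. GSPT1, the GTPase partner of the termination factor ETF1, rose, at 0.86, 0.52 and 0.68, a mean of 0.73 ± 0.11 (adjusted p = 0.0454), and lost its call in 3 of 10 alternative fits, with adjusted p-values up to 0.123.

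**Figure D2:**
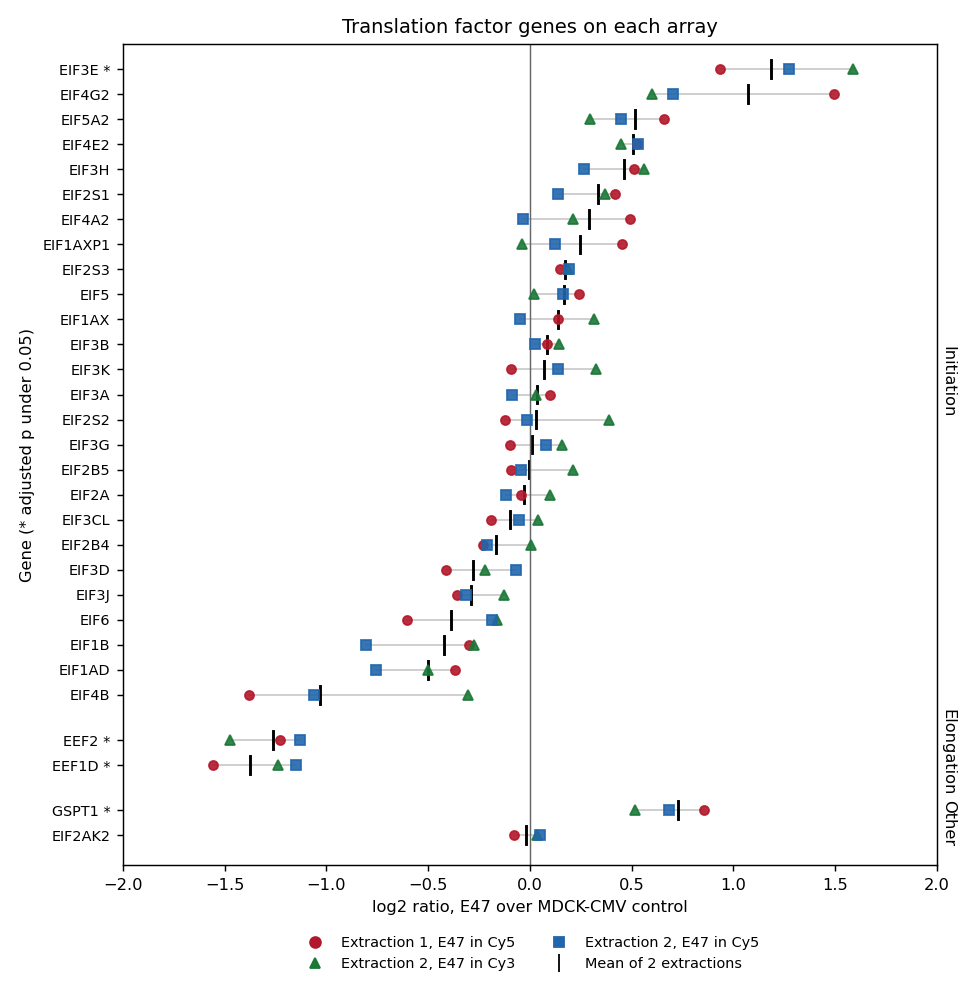
Log2 ratio of E47 over MDCK-CMV cells (x axis) for 26 initiation factors, 2 elongation factors, GSPT1 and EIF2AK2 (y axis), with the 3 arrays as symbols, the mean of 2 extractions as a black bar and an asterisk for an adjusted p under 0.05. EEF1D and EEF2, averaged over spots, lie at or below −1.13 on every array, while the initiation factors range from EIF4B at −1.03 to EIF3E at 1.18.

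Whether ribosomal proteins and initiation factors differed as groups depended on the extraction. On the extraction 1 array the median was −0.40 for ribosomal proteins, 0.02 for initiation factors and −0.02 for all named genes. On the Cy3 array of extraction 2 the medians were 0.07, 0.15 and 0.0038, and on its Cy5 array −0.05, −0.03 and −0.02. The ribosomal median thus lay 0.42 below that of the initiation factors in extraction 1, and 0.08 and 0.02 below it on the arrays of extraction 2. With the dye swap averaged, extraction 2 alone gave a ribosomal median of 0.01, on the other side of 0 from extraction 1. The difference between the groups was not tested.

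**Figure D3:**
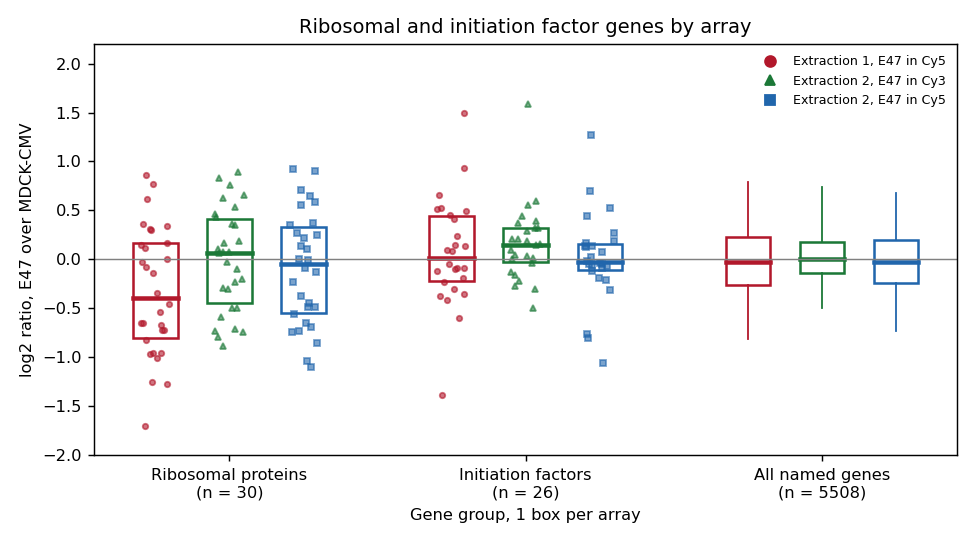
Log2 ratio of E47 over MDCK-CMV cells (y axis) on each of 3 arrays for 30 ribosomal proteins, 26 initiation factors and 5508 named genes (x axis). Boxes span the quartiles with the median as a thick line, points are genes, and whiskers for all named genes leave out the outer twentieth on each side; the ribosomal median is −0.40 on the extraction 1 array and −0.05 and 0.07 on the others.

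The shift between extractions ran through nearly all ribosomal proteins. With E47 in Cy5 on both arrays, 26 of 30 (86.7%) had a lower ratio in extraction 1 than in extraction 2, including 10 of 11 of the small subunit. Among initiation factors 13 of 26 did, and among all named genes 49.1%. Related lists, described further below, leaned the same way in part. The share was 76.2% for ribosome biogenesis genes, 62.5% for the mitochondrial ribosome and its factors, and 61.5% for other ribosome-associated genes. For mTOR and S6 kinase signalling it was 30.8%. Despite this shift the values went together. Across the 30 ribosomal proteins the 2 Cy5 arrays correlated with r = 0.96 (Pearson), against 0.85 across all named genes. The dye swap gave r = 0.88, against 0.76, and extraction 1 with the Cy3 array 0.83, against 0.69. Ribosomal protein ratios were also more widely spread on each array than those of all named genes, which by itself raises r. Genes are not independent replicates, and every array carries RNA of the control cells, so these are descriptions. What differed between the extractions was not tested.

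Between the dyes of extraction 2, the Cy3 ratio was above the Cy5 ratio for 16 of 30 ribosomal proteins (53.3%), 19 of 26 initiation factors (73.1%) and 60.3% of all named genes. The median size of the dye difference was 0.19 for both groups and 0.17 for all named genes. The 4 largest dye differences were those of RPS14, EIF4B (0.75), EIF1B (0.53) and RPL36AL (0.52), in each of which Cy3 gave the higher ratio. Averaged over spots, the fall of EEF2 was larger in Cy3, by 0.35, and that of EEF1D by 0.09. The 2 places of EEF2 differed in this: 1 was at −1.28 in Cy3 and −0.48 in Cy5, the other at −1.67 and −1.77.

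**Figure D4:**
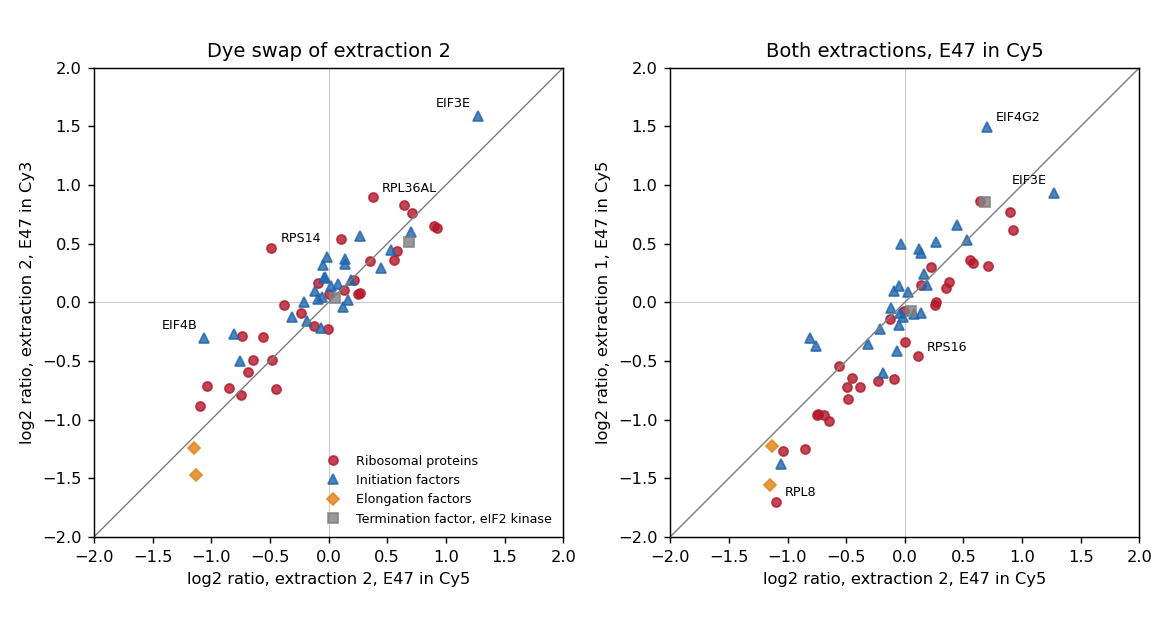
Log2 ratios of the 60 genes on the Cy5 array of extraction 2 (x axes) against the Cy3 array of the same extraction (left, y axis) and against extraction 1 in Cy5 (right, y axis), with the line of equal values. On the left RPS14 and EIF4B lie farthest above the line; on the right 26 of 30 ribosomal proteins lie below it, and 13 of 26 initiation factors do.

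The spot data show how closely a gene was measured within an array. In 83 pairs of adjacent spots of 1 clone, the median size of the difference was 0.03 on each array, and the largest was 0.81. Besides, 15 clones lay in several places, and the range over places of the mean of both extractions had a median of 0.09 and a highest value of 0.99, that of EEF2. Of 13 genes with several clones, the clones of 5 differed in sign (EIF2AK2, EIF2B4, EIF3A, EIF3G and RPL37), and none of these 5 passed. Among the genes that passed RPS19 alone had several clones, so the others could not have been among these 5. For RPS7 the clone means were −1.01 and −0.48, and for EIF5A2 0.94 and 0.30. The clone of RPS16 with 2 places was at −0.31 and 0.23. The other RPS16 clone was below 0 on every array, at −0.16, −0.02 and −0.15. RPS21, in contrast, had means between −0.75 and −0.72 in 3 places. Clones were not separated further, and 47 of the 60 genes rest on 1 clone. EIF3CL, EIF4E2 and RPS4Y1 rest on 1 spot.

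**Figure D5:**
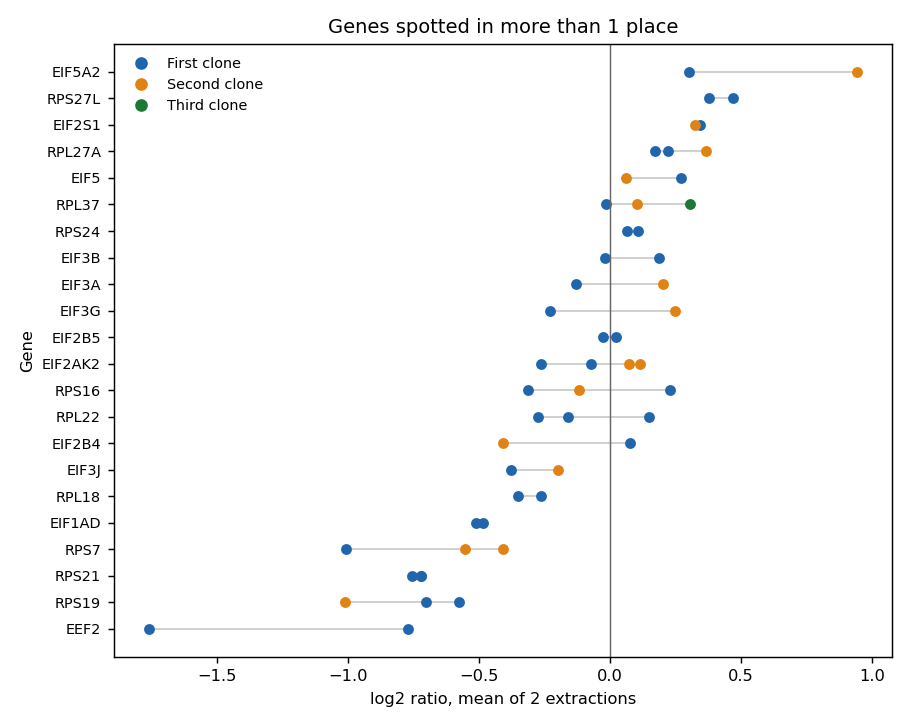
Mean log2 ratio of 2 extractions (x axis) for each place on the array, for the 22 genes spotted in more than 1 place (y axis), with clones of a gene in different colours. Most genes stay on 1 side of 0; EEF2 spans −1.76 to −0.77 with 1 clone, and 9 genes have places on both sides.

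Of the 67 symbols, 7 had no spot with a value on every array and were not tested. EIF1, the scanning factor, was at −0.52 in extraction 1 and −0.72 in Cy3 of extraction 2. EIF5B, which joins the subunits, was at 0.38 and 0.46 on the Cy5 arrays. RPL35 had a value on the Cy3 array alone, 0.69, EIF3F had none, and RPS15A was at −2.10 in 1 spot of extraction 1 against −0.06 in Cy3. EEF2KMT, a methyltransferase of EEF2, was at −0.09 and −0.39 on the Cy5 arrays. A further 18 spots of 9 clones carried several symbols, of which at least 1 met the naming rule, and were left out.

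Genes of the wider translation apparatus were counted in 4 lists. None of 21 ribosome biogenesis genes passed (limma, 9 of 21 at an unadjusted p under 0.05, beside the 35.6% of all named genes), with a median log2 ratio of −0.08; UTP14A, a small-subunit processing factor, was at −0.65 and NHP2, a component of pseudouridylation particles, at −0.55, with adjusted p-values of 0.0756 and 0.0708. Of 13 genes of mTOR and S6 kinase signalling 1 passed, which is 7.69%, beside 9.19% of all named genes. DDIT4, a stress-induced inhibitor of mTORC1, fell, with −1.27, −0.84 and −0.79 on the arrays, a mean of −1.04 (adjusted p = 0.0416). The median of these 13 was −0.03. Of 13 other ribosome-associated and pyrimidine-tract genes 2 passed (15.4%, beside the same 9.19%), and both rose. These were the signal recognition particle proteins SRP9, at a mean of 1.04 (adjusted p = 0.04995), and SRP14, at 0.61 (0.0442). PABPC1, the poly(A)-binding protein, was at 6.49, 0.69 and 1.77 and did not pass, with an adjusted p of 0.158. Of 40 genes of the mitochondrial ribosome and its factors 3 rose and 2 fell, which is 12.5%, again beside 9.19%. Their median was near 0. MRPL13 rose most, with 1.25, followed by MRPL51 with 0.93, and MRPL37, at −0.85, and MRPS30, at −0.72, fell.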

How the data were processed

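The values deposited by the authors are ratios on a log scale, read here as log2, 1 per spot and array. No source used here gives the background correction or normalization. Spots were named from the platform annotation where it gives 1 symbol (17488 of 27648), and those measured on every array were averaged per gene. The SE of limma pools the spread of a gene with that of the whole table. The arrays of extraction 2 were averaged, since they carry the same E47 extraction, which left 2 replicates. Ratios were tested against 0 with limma 3.58.1 (R 4.3.3, lmFit and eBayes, 2-sided) over 5508 named genes and 8500 unnamed spots, with the control RNA treated as a common reference (whether it was 1 extract is not stated), and p-values were adjusted by Benjamini-Hochberg. Dog gene names came from a RefSeq table, used for names alone, and 56 of the 60 symbols matched. No sequences were used here. Genes described in full were those that passed, the 4 highest and lowest of each group, the 4 largest dye differences and RPS6. The genes, lists and tests were chosen with earlier results of these data known. Alternatives left out arrays or extractions, changed centring, scaling, spot averaging, the features tested, the variance model and the threshold; averaging clones first was added after seeing the data.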

Additional observations from a re-analysis of the deposited data

How the results depend on the processing

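Of the 13 calls, 2 remained without the Cy5 array of extraction 2, 3 with scaled arrays, 10 with median centring, 11 with incomplete spots kept, 12 with the median over spots and 12 with robust variance shrinkage, and all 13 in the other alternatives with a test (leaving out an extraction gives none). No called gene changed sign in any alternative, which is likely for genes chosen by a test on the same arrays. Of all named genes 9.19% were called in the main fit, 18.3% with the 3 arrays as replicates and 21.3% with named genes alone. The share was 16.7% without the Cy3 array of extraction 2 and 1.98% without its Cy5 array. With scaled arrays it was 1.23%, and at a threshold of 0.10 it was 22.6%. The counts below are to be read beside these shares. Ribosomal proteins called lower numbered 6 and were 0 without that Cy5 array, 2 with scaled arrays, and 10 without the Cy3 array, with named genes alone or at a threshold of 0.10. Those called higher numbered 3 and were 0 without that Cy5 array or with scaled arrays, 6 with the 3 arrays as replicates, and 5 with named genes alone or at 0.10. Initiation factors called lower numbered 0 and were 1 without the Cy3 array or with the 3 arrays as replicates, 2 with named genes alone and 3 at 0.10. Those called higher numbered 1 and were 0 without that Cy5 array or with scaled arrays, 2 without the Cy3 array, and 5 with the 3 arrays as replicates, with named genes alone or at 0.10. Elongation factors called lower numbered 2, and 1 with scaled arrays. The median of the initiation factors, 0.05, was 0.12 without that Cy5 array. Leaving out 1 extraction gave medians from −0.40 to 0.01 for ribosomal proteins, 0.02 to 0.09 for initiation factors and −1.39 to −1.25 for elongation factors. Extraction 2 alone turned the sign of 6 uncalled genes (EIF2AK2, EIF2B5, EIF3A, RPL7A, RPS16 and RPL18, from −0.31 to 0.04) and extraction 1 alone that of 5 (EIF2S2, EIF3G, EIF3K, RPS6 and RPS24). In the other alternatives the genes that changed sign had means near 0: without the Cy5 array EIF2A was at 0.0253, EIF2B5 at 0.0597 and RPS16 at 0.0380. Without the Cy3 array EIF2S2 was at −0.0692 and EIF3G at −0.0103. With the 3 arrays as replicates EIF2AK2 was at 0.0027, EIF2B5 at 0.0259 and RPS16 at 0.0616, and with scaled arrays EIF2B5 was at 0.0255 and RPS16 at 0.0304. The cause was not tested. Averaging the clones of a gene first, chosen after seeing the data, added RPS7.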
